A study of Mus musculus with 6 samples.

Results

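Oxidative phosphorylation passes electrons from NADH and succinate through complexes I to IV of the inner mitochondrial membrane to oxygen, and complex V makes ATP from the proton gradient that complexes I, III, and IV build. Most subunits are encoded in the nucleus and imported, and the mitochondrial genome encodes the remaining core subunits of complexes I, III, IV, and V, so that a working complex joins products of both genomes. Dividing effector T cells make much of their ATP by glycolysis, and memory T cells, including tissue-resident memory T cells (T_RM), are known for relying more on mitochondrial respiration. The nuclear-encoded genes of the 5 complexes were followed here in CD8+ T cells expanded toward an effector state or toward a T_RM-like state.

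Members were the protein-coding genes of the count table whose symbol begins with Ndufa, Ndufb, Ndufc, Ndufs, Ndufv, Uqcr, Cox followed by a digit from 4 to 8, or Atp5, together with Sdha, Sdhb, Sdhc, and Sdhd. There were 98 such genes among the 57126 listed. They comprised 38 complex I subunits, 8 complex I assembly factors (Ndufaf1 to Ndufaf8), 4 members of complex II, 8 of complex III, 21 of complex IV, and 19 of complex V. Ndufa4 and Ndufa4l2 carry complex I symbols and were placed in complex IV, where the Ndufa4 protein is known to sit. Another 19 genes with matching symbols were not protein-coding and were left out. Of the 98 members, 93 had at least 1 count in at least 3 samples and were tested, and 89 had at least 10 counts in every sample. The 5 untested members were Cox4i2, Cox7b2, Cox8c, Ndufb11b, and a second entry of Atp5po, each at or near 0 counts in all samples.

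RNA was sequenced from 6 samples, 3 of effector cells (T_Eff) and 3 of T_RM-like cells. All came from OT-I mice, whose transgenic T cell receptor recognises an ovalbumin peptide, and all CD8+ cells from spleen and lymph nodes were stimulated with artificial antigen-presenting nanoparticles (nano-aAPCs) bearing the peptide on Kb together with anti-CD28. T_Eff cells grew with IL-2 alone, T_RM-like cells grew with IL-2 to which IL-15 and TGF-β had been added, and both were harvested on day 6. The groups therefore share receptor, antigen, and IL-2 and differ in 2 cytokines added together, whose separate effects cannot be told apart, and the cells are an in vitro model in which no tissue was involved. The sources do not say whether the replicates came from separate mice or cultures, so p-values measure the spread between these samples, which may be technical.

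The libraries held between 18319013 and 23622621 counts. T_RM-like replicates 1 and 2 had 35130 and 35559 genes with a count, whereas T_RM-like replicate 3 had 24229 and the T_Eff samples 24235 to 24908. By this measure T_RM-like replicates 1 and 2 stood apart from all other samples, and replicate 3 was like T_Eff. Members with an adjusted p below 0.05 without replicate 3 are given with and without it. A fit without replicate 3 compares T_Eff with T_RM-like replicates 1 and 2 alone. Which T_RM-like libraries are the unusual ones was not tested. The summed level of 7 CD8+ T cell markers (Cd3e, Cd8a, and others), of which 1 was past the threshold, was 2349 to 2505 CPM (counts scaled to the effective library size) in T_Eff and 2949 to 4095 CPM in T_RM-like samples. Markers of CD4+ T cells, B cells, macrophages, dendritic cells, neutrophils, and erythroid cells each summed to 6.48 CPM or less in every sample, with S100a8, S100a9, and Hba-a1 at 0. NK cell markers summed to 9.83 to 22 CPM in T_Eff and 0.0922 to 8.76 CPM in T_RM-like samples, and stromal markers, among them Pecam1, to 48.1 to 65 CPM and 21.2 to 45.2 CPM, and their part in the results was not tested. In bulk RNA, a smaller number of expressing cells and a lower level per cell cannot be told apart.

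The promoters of these genes are known for sites of NRF1, GABPA (also called NRF2), YY1, and ESRRA, factors that drive nuclear respiratory genes. In the RefSeq start-site windows of mouse build GRCm38.p6, from 250 bases before to 50 after the start, 76 of the members were found among 17492 genes. A gene counted when any of its listed windows held an exact match on either strand. The NRF1 core GCATGCGC was in 15.8% of the members and 3.94% of all genes. The YY1 motif AAGATGGCG was in 10.5% and 2.14%, the GABPA motif CCGGAAGT in 6.58% and 5.69%, and the ESRRA motif TCAAGGTCA in 2.63% and 0.377%. At least 1 of the 4 was in 34.2% of the members and 11.4% of all genes. None of these motifs lies inside another. The 250 bases upstream of 4 members are shown. Cox7a1 was chosen for the largest fold change among members with at least 10 counts in every sample. Cox7a2l, Uqcrh, and Ndufa6 were chosen because T_RM-like replicates 1 and 2 stood above all other samples, replicate 3 included. Capitals mark a match, and each sequence runs 5′ to 3′ on the strand of the gene.
Cox7a1 (chr7:30183921-30184170, plus strand): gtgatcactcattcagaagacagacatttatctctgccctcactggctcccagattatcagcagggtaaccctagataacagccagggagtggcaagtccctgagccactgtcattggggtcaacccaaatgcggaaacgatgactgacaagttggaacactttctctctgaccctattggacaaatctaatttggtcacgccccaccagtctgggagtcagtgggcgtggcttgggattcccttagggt
Cox7a2l (chr17:83514334-83514583, minus strand): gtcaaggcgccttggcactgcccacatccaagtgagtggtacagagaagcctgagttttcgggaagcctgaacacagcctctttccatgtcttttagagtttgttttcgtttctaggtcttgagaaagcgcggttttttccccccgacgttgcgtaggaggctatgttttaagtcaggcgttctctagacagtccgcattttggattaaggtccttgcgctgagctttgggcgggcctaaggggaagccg
Uqcrh (chr4:116075071-116075320, minus strand): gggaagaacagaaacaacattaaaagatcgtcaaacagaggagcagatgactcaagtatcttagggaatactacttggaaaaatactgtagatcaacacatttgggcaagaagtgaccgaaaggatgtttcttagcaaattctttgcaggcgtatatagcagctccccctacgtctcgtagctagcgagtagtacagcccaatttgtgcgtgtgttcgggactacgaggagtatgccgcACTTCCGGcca
Ndufa6 (chr15:82354292-82354541, minus strand): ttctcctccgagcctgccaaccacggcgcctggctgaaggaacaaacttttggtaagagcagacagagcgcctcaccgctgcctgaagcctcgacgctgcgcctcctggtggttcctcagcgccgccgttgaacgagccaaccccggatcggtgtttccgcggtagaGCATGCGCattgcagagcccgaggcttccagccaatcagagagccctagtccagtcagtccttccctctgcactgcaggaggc
The Ndufa6 region held an NRF1 match that begins 83 bases before the start, and the Uqcrh region a GABPA match, on the opposite strand, that begins 11 bases before it. The Cox7a1 and Cox7a2l regions held none of the 4 motifs as spelled.

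The first comparison asked whether the T_RM-like cytokine mix shifted the nuclear respiratory genes as a whole. None of the 93 tested members passed the threshold in edgeR's quasi-likelihood test, which required an adjusted p under 0.05 together with a log2 fold change of more than 0.58 in size, against 3.01% of the 26154 genes tested. At an unadjusted p below 0.05 there were 8 members (Cox7a1, Ndufb1, Ndufa4, Cox6c, Ndufa13, Ndufv3, Uqcrh, and Cox5b-ps), against a background of 14.8%. limma-voom called none of the members, beside 737 of the 26154 genes tested. DESeq2 called Cox7a1 alone among members, beside 1256 of the 26154 genes. The median log2 fold change over members was 0.12, beside 0.02 over all genes tested, and 64 members lay above 0 and 29 below.

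The 95% intervals of most members stayed inside the fold threshold, which takes both a small fold change and a narrow interval. Among the 89 well-counted members, the 95% interval of the log2 fold change lay wholly between -0.58 and 0.58 for 63, or 70.8%. It did so for 37.4% of the 14822 genes with that many counts and for 44.8% of the 10881 protein-coding genes among them. The median level of the 89 members was also higher, 57.9 CPM per kilobase beside 7.07 over the 14822 genes and 8.16 over the protein-coding ones. Fold changes of the 89 ran from -0.41 for Ndufa4 to 1.07 for Cox7a1.

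**Figure D1:**
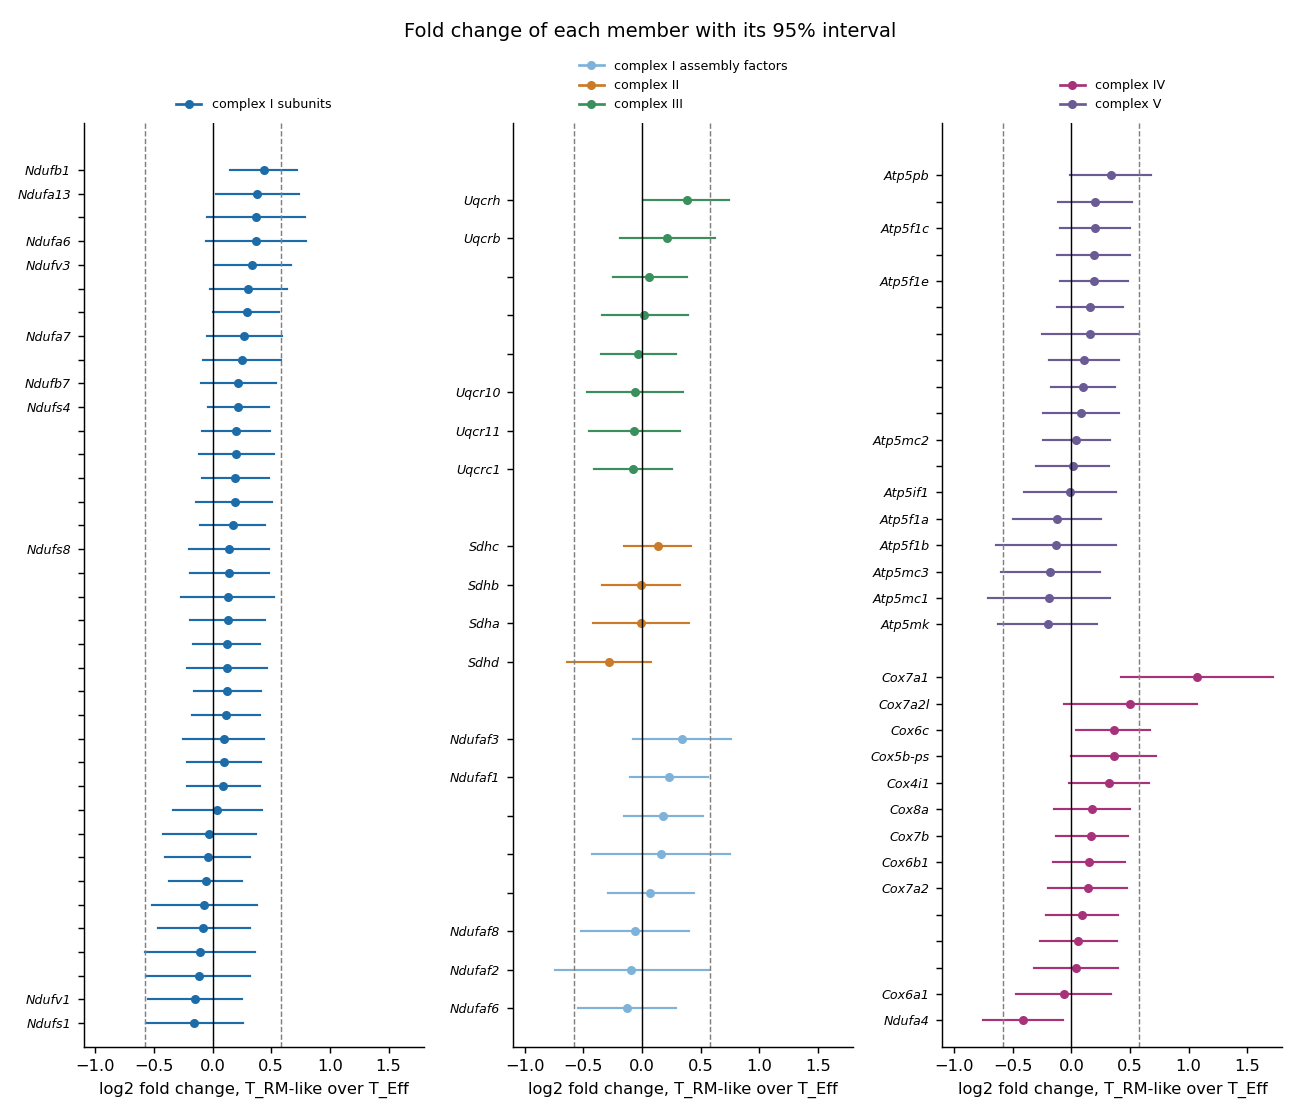
Log2 fold change of T_RM-like over T_Eff for the 89 members that reached 10 counts in each sample, by complex. Points are edgeR estimates, bars are 95% intervals, dashed lines mark -0.58 and 0.58, and symbols are written for the members chosen to be named; the intervals of 63 members lie between the dashed lines, and Cox7a1 lies farthest from 0 at 1.07.

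In 20 of the 93 members all 3 T_RM-like samples lay above all 3 T_Eff samples, against 10.6% of all genes tested, and in 1, Ndufa4, all lay below, against 9.72%. The 20 comprised 9 complex I subunits (Ndufa1, Ndufa3, Ndufa10, Ndufb1, Ndufb2, Ndufb10, Ndufs4, Ndufs5, and Ndufv3), the assembly factor Ndufaf5, Sdhc of complex II, Uqcrh of complex III, 5 members of complex IV (Cox5b-ps, Cox6c, Cox7a1, Cox7b, and Cox8b), and 3 of complex V (Atp5f1c, Atp5f1d, and Atp5pb). Both counts moved when a sample was left out. Among the 89 well-counted members, 19 lay above and 1 below with all samples, against 11.6% and 11.3% of genes with as many counts. Without T_RM-like replicate 3, 29 lay above (32.6%, against 26.4%) and 11 below (12.4%, against 31.9%). Without T_Eff replicate 3 or T_RM-like replicate 1, 31 lay above (34.8%, against 14.4% and 14.1%), and without T_Eff replicate 2, 19 lay above (21.3%, against 16.1%) and 3 below (against 16.9%). Many of these gaps were narrow. Ndufs4, an accessory subunit of the complex I arm that faces the matrix, was at 45.3, 44.8, and 47.9 CPM in T_Eff and 52, 55, and 54 CPM in T_RM-like replicates 1, 2, and 3 (log2 fold change 0.22 ± 0.11 SE, adjusted p = 0.426). Sdhc, a membrane anchor of complex II, was at 66.7, 56.3, and 66.6 CPM and at 67.6, 69.9, and 70.9 CPM, so that its groups parted by less than the spread within T_Eff.

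The summed level of the members differed between groups by less than the spread within them. It was 7429, 6246, and 7646 CPM in T_Eff replicates 1, 2, and 3 and 6923, 7726, and 7995 CPM in T_RM-like replicates 1, 2, and 3, with means of 7107 ± 753 and 7548 ± 557 CPM (SD, n = 3), a log2 ratio of 0.09. The members took between 0.631% and 0.819% of all counts. Complex V held the largest part of that sum and complex I subunits the next, and the assembly factors of complex I reached only 81.5 to 106 CPM together.

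**Figure D2:**
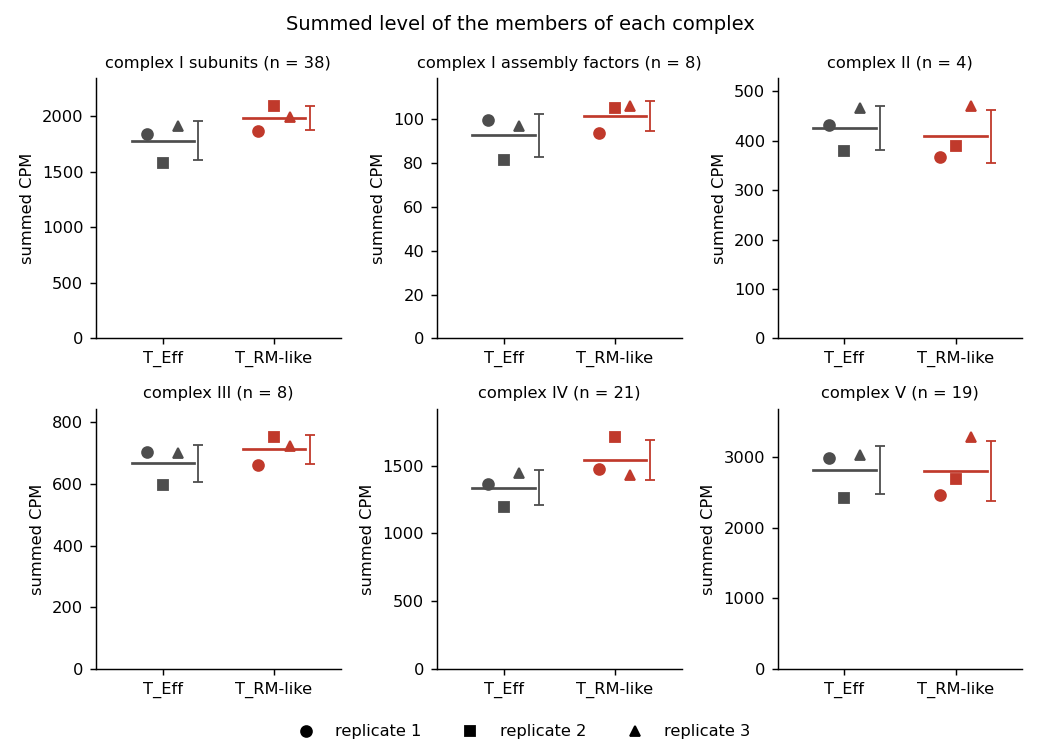
Summed CPM of the members of each complex in every sample, with replicates as symbols, group means as horizontal lines, and SD as bars (n = 3 a group). T_Eff replicate 2 is the lowest T_Eff sample for every complex, and the groups overlap in each complex, complex IV included, where T_RM-like replicates 1 and 2 are highest at 1476 and 1709 CPM.

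Most members were high or low together in single samples. T_Eff replicate 2 was the lowest T_Eff sample for 80 of the 89 members, or 89.9%, whereas it was the lowest for 48.7% of protein-coding genes with as many counts. The median log2 deviation of the members from their T_Eff mean was -0.20 in T_Eff replicate 2, and 0.07 and 0.11 in T_Eff replicates 1 and 3. It was 0.02, 0.16, and 0.18 in T_RM-like replicates 1, 2, and 3. T_RM-like replicate 1 was in turn the lowest of its group for 69 members, or 77.5%, against 32.2% of those protein-coding genes. Without T_Eff replicate 2 the median log2 fold change over members was 0.03 instead of 0.12, beside 0.03 over all genes in that fit, and the log2 ratio of the summed levels was 0.00. In T_Eff replicate 2 the median deviation was -0.18 for mitochondrial ribosomal proteins and for electron carriers and ubiquinone synthesis, -0.14 for enzymes of the tricarboxylic acid cycle, -0.09 for assembly factors outside the rule, -0.06 for biogenesis regulators, and 0.01 for mitochondrially encoded mRNAs, beside -0.03 for protein-coding genes.

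**Figure D3:**
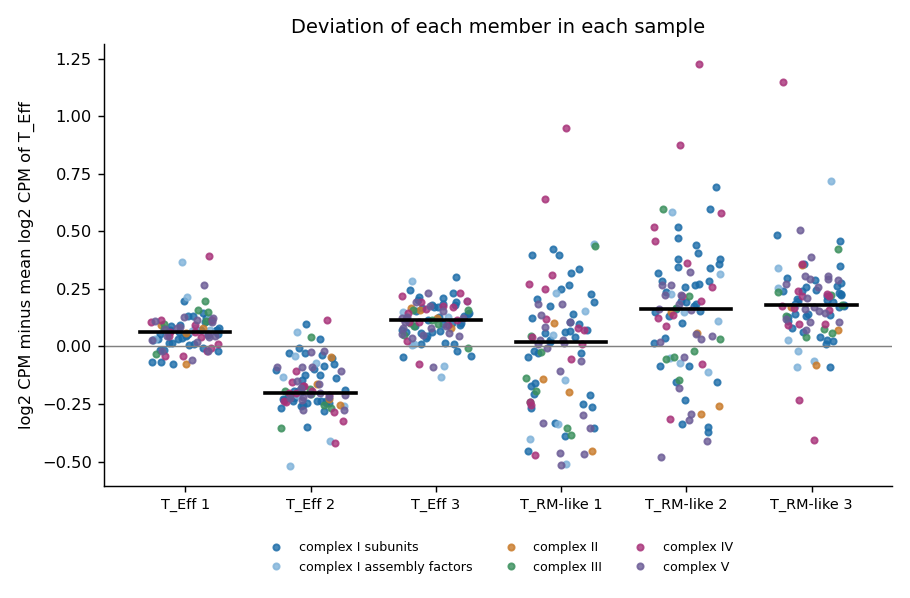
Deviation of each of the 89 members from its mean log2 CPM in T_Eff, by sample, with colours for complexes and black lines for medians. The members of T_Eff replicate 2 sit lowest, with a median of -0.20, and those of T_RM-like replicates 2 and 3 highest, with medians of 0.16 and 0.18.

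Complex I takes electrons from NADH. Of its 37 tested subunits, 28 lay above 0 and 9 below, with a median log2 fold change of 0.13 and none past the threshold. Estimates for core subunits that carry the flavin and iron-sulfur clusters differed in sign, but each one given here lay within 1 SE of 0. Ndufs1, which holds iron-sulfur clusters, was at 94.1, 73, and 92.2 CPM in T_Eff and 67.2, 67.4, and 97.7 CPM in T_RM-like replicates 1, 2, and 3 (log2 fold change -0.16 ± 0.18 SE). Ndufv1, which binds NADH and the flavin, followed the same order, at 96.3, 73.5, and 96 CPM and at 67.2, 74.9, and 96.8 CPM (-0.15 ± 0.18 SE). In both genes replicate 3 lay above all T_Eff samples, and replicates 1 and 2 lay near or below the lowest of them. Ndufs8, another iron-sulfur subunit, had the opposite sign, at 51.3, 40.2, and 52.5 CPM in T_Eff and 49.7, 59.4, and 49.8 CPM in T_RM-like samples (0.14 ± 0.15 SE). None of the 3 passed the test, with adjusted p-values of 0.758 for Ndufs1, 0.758 for Ndufv1, and 0.729 for Ndufs8. Ndufv2 and Ndufs7 had the sign of Ndufs8, with log2 fold changes of 0.13 ± 0.14 SE and 0.12 ± 0.13 SE.

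Ndufb1, an accessory subunit of the membrane arm, had the largest fold change among complex I subunits. It was at 61.2, 51, and 56.7 CPM in T_Eff and 73.9, 76.1, and 78.6 CPM in T_RM-like samples (log2 fold change 0.44 ± 0.12 SE, 95% interval 0.15 to 0.72, adjusted p = 0.123). The 3 T_RM-like samples lay close together and all above T_Eff. Its adjusted p was 0.0396 in DESeq2 with all samples. Over the alternatives it ranged from 0.0213 without T_RM-like replicate 3 to 0.346 without T_Eff replicate 3. The log2 fold change stayed below 0.58 in all of them. Ndufa13, also known as GRIM-19, was at 77.5, 71.4, and 81.7 CPM in T_Eff and 103, 116, and 81.1 CPM in T_RM-like samples (0.38 ± 0.16 SE, adjusted p = 0.299). Ndufa6, a small accessory subunit of the LYR family, was at 54.2, 55.2, and 52.5 CPM in T_Eff and 71.1, 87.2, and 50.7 CPM in T_RM-like samples (0.37 ± 0.19 SE, adjusted p = 0.423). For both genes, T_RM-like replicates 1 and 2 lay above all T_Eff samples and replicate 3 did not. Ndufb7, at 119 CPM per kilobase, and Ndufa7, at 96.1, had the highest levels per length in the complex, and among its well-counted subunits Ndufab1, the mitochondrial acyl carrier protein, had the lowest at 1.77 CPM per kilobase. The deposited length of Ndufab1 was 4387 bases, well over the 1735 bases of its canonical transcript in a later GENCODE release, which lowers a level per length.

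The assembly factors of complex I build the arms of the enzyme and are not part of it. Their median log2 fold change was 0.12 over 8 genes, of which 5 lay above 0 and 3 below. Ndufaf3 was at 13.9, 13.2, and 13.7 CPM in T_Eff and 18.5, 20.4, and 12.8 CPM in T_RM-like samples (0.34 ± 0.19 SE, adjusted p = 0.463). Its partner Ndufaf4 showed another order, at 17.6, 14.4, and 18.2 CPM in T_Eff and 13.2, 15.4, and 27.4 CPM in T_RM-like samples. The high T_RM-like samples were thus replicates 1 and 2 for Ndufaf3 and replicate 3 for Ndufaf4. Ndufaf6 had the lowest log2 fold change of the assembly factors, -0.13 ± 0.18 SE, and Ndufaf2 the next, -0.09 ± 0.29 SE. Ndufaf1, with 0.23 ± 0.15 SE, and Ndufaf8 had the highest levels per length, 11.6 and 11.9 CPM per kilobase.

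Complex II oxidises succinate and has no subunit from the mitochondrial genome. Its median log2 fold change was -0.01. The flavoprotein Sdha was at 135, 138, and 155 CPM in T_Eff and 124, 119, and 182 CPM in T_RM-like samples, and the iron-sulfur subunit Sdhb at 101, 82.8, and 109 CPM and 87.9, 101, and 102 CPM. Both had a log2 fold change of -0.01, with 95% intervals inside -0.58 and 0.58. The second membrane anchor, Sdhd, was at 130, 102, and 136 CPM in T_Eff and 89, 99.3, and 115 CPM in T_RM-like samples (-0.28 ± 0.16 SE, adjusted p = 0.482). T_RM-like replicates 1 and 2 of Sdhd lay below all T_Eff samples and replicate 3 between them.

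Complex III passes electrons from ubiquinol to cytochrome c. Of its 8 members, 4 lay above 0 and 4 below. The core proteins Uqcrc1 and Uqcrc2 and the Rieske protein Uqcrfs1 had log2 fold changes of -0.08, 0.06, and -0.03, each with its 95% interval inside -0.58 and 0.58. Uqcrh, the hinge protein by the cytochrome c site, was at 151, 159, and 154 CPM in T_Eff and 209, 234, and 159 CPM in T_RM-like samples (0.38 ± 0.16 SE, adjusted p = 0.323). Its T_Eff samples lay close together, and T_RM-like replicate 3 lay above the highest of them by less than 1 CPM. It also had the highest level per length in the complex, 325 CPM per kilobase, followed by Uqcr10 at 134. Uqcrb, which helps bind ubiquinone, had a log2 fold change of 0.21 ± 0.18 SE, and Uqcr11 of -0.07 ± 0.17 SE.

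Complex IV hands electrons to oxygen, and several of its subunits exist as a broadly expressed isoform and an isoform known from heart and skeletal muscle, lung, or testis. The broad isoforms made up nearly all of each set in both groups. Cox4i1 was 99.9% or more of the Cox4i pair per length in every sample, Cox6a1 of the Cox6a pair, and Cox8a 99.8% or more of the Cox8 set. Cox6a1 itself was at 136, 101, and 147 CPM in T_Eff and 106, 120, and 142 CPM in T_RM-like samples (log2 fold change -0.06 ± 0.18 SE), and Cox6b1 at 132, 112, and 136 CPM and 130, 151, and 141 CPM (0.15 ± 0.14 SE). Cox4i2, the lung isoform that responds to oxygen, was at 0 counts in 5 of the 6 samples, where a count of 0 allows up to 3 counts, or between 0.131 and 0.166 CPM. Cox6b2, Cox7b2, and Cox8c, known from testis, were at 1.01 CPM or less in every sample, and Cox6b2 was at 1.01, 0.81, and 0.939 CPM in T_Eff and 0.523, 0.917, and 0.415 CPM in T_RM-like samples. The muscle isoform Cox6a2 and Ndufa4l2, an isoform of Ndufa4 known to be induced by hypoxia, were at 0.553 CPM or less. Cox8b had no more than 0.184 CPM in any sample, so that the separation of its groups rests on a few counts.

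Cox7a1, the heart and muscle isoform of subunit VIIa, had the largest fold change of the 89 members. It was at 1.42, 0.81, and 1.1 CPM in T_Eff and 2.09, 2.53, and 2.4 CPM in T_RM-like samples (log2 fold change 1.07 ± 0.29 SE, 95% interval 0.42 to 1.72, adjusted p = 0.0989). All 3 T_RM-like samples lay above all T_Eff samples, and the gene missed the threshold in the edgeR fit with the usual filter. Its adjusted p was 0.0377 in DESeq2, 0.0482 with no filter on low counts, 0.0181 with the replicate number as a block, and 0.0253 without T_RM-like replicate 3, and over all alternatives it ran from 0.0181 to 0.314, the latter without T_Eff replicate 3. Between 16 and 58 reads per library stand behind these values. Its broad counterpart Cox7a2 was at 93.4, 75.9, and 101 CPM in T_Eff and 90, 104, and 104 CPM in T_RM-like samples. Per length, Cox7a1 was 1.3% to 1.83% of the pair in T_Eff and 2.76% to 2.92% in T_RM-like samples.

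Cox7a2l, the related protein that joins complexes III and IV in supercomplexes, was split between the T_RM-like replicates. It was at 159, 177, and 155 CPM in T_Eff and 255, 300, and 139 CPM in T_RM-like replicates 1, 2, and 3 (0.50 ± 0.25 SE, adjusted p = 0.411). T_RM-like replicates 1 and 2 lay far above T_Eff, and replicate 3 lay below it. Without replicate 3 the log2 fold change was 0.75 ± 0.11 SE with an adjusted p of 0.000397, and over the alternatives the adjusted p ran up to 0.852, without T_RM-like replicate 2. The annotation holds 2 near-identical copies of the Cox7a2l transcript elsewhere, matching over up to 945 bases, so that its reads may be shared with them.

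Ndufa4 was the only tested member that lay lower in every T_RM-like sample than in any T_Eff sample. It was at 76, 57.7, and 79.1 CPM in T_Eff and 50.7, 56.4, and 53 CPM in T_RM-like samples (-0.41 ± 0.15 SE, 95% interval -0.75 to -0.07, adjusted p = 0.236). The highest T_RM-like sample and the lowest T_Eff sample were 56.4 and 57.7 CPM. Cox4i1, a regulatory subunit known to bind ATP, had the highest level per length of the complex (321 CPM per kilobase). It was at 217, 203, and 236 CPM in T_Eff and 271, 313, and 233 CPM in T_RM-like samples (0.32 ± 0.15 SE, adjusted p = 0.378). Cox6c, a small membrane subunit, was at 101, 85.5, and 110 CPM in T_Eff and 117, 135, and 126 CPM in T_RM-like samples (0.36 ± 0.14 SE, adjusted p = 0.279). Cox6c lay above T_Eff in all T_RM-like samples, and Cox4i1 only in replicates 1 and 2. The gene annotated as Cox5b-ps is protein-coding in the annotation and matches the Cox5b transcript over 497 bases. It was counted at 49.1, 40.3, and 54.6 CPM in T_Eff and 57.5, 71.2, and 56.3 CPM in T_RM-like samples, and Cox5b at 48.6, 43.8, and 58.8 CPM and 48.2, 53.2, and 56.5 CPM, with a split between them that depends on how shared reads were assigned.

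**Figure D4:**
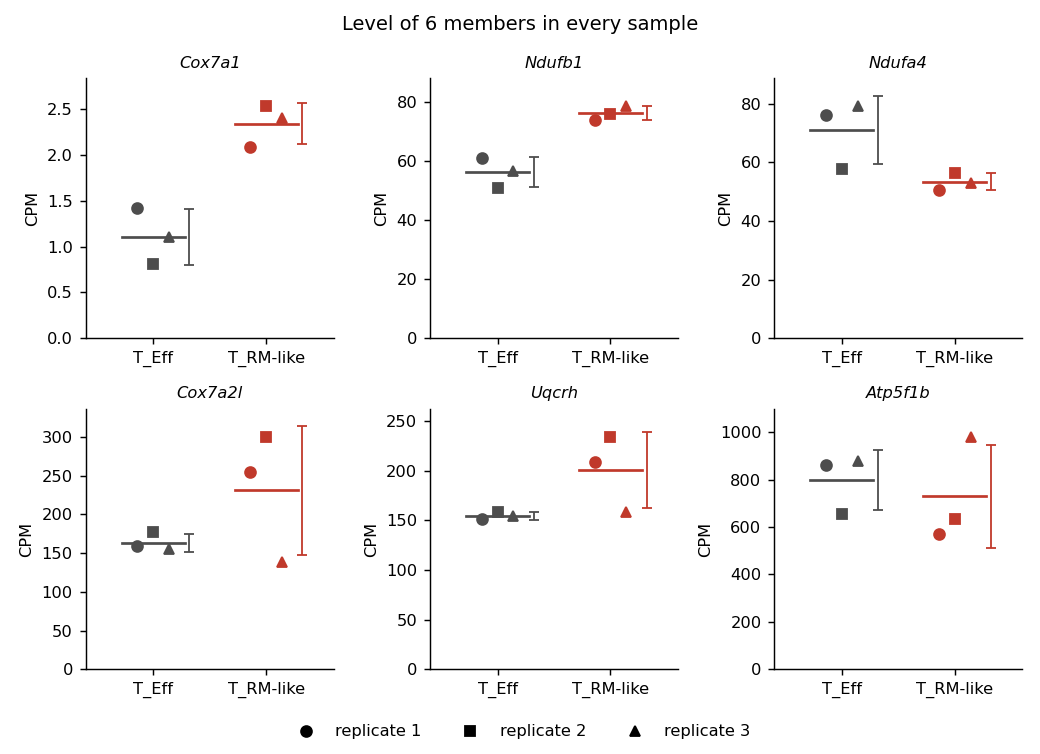
CPM of 6 members in every sample, with replicates as symbols, group means as horizontal lines, and SD as bars (n = 3 a group). The T_RM-like samples of Cox7a1 (2.09 to 2.53 CPM) and Ndufb1 (73.9 to 78.6 CPM) lie together above T_Eff and those of Ndufa4 below it, whereas T_RM-like replicate 3 of Cox7a2l (139 CPM), Uqcrh, and Atp5f1b (980 CPM) lies away from replicates 1 and 2.

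Complex V consists of a catalytic head (F1), a membrane rotor of c subunits, and a stator. Its median log2 fold change was 0.09 over 18 tested members, of which 12 lay above 0 and 6 below, and the subunits of the head differed in sign. The catalytic β subunit Atp5f1b, which had the highest level per length of all members (399 CPM per kilobase), was at 864, 655, and 881 CPM in T_Eff and 573, 635, and 980 CPM in T_RM-like samples (-0.13 ± 0.22 SE, adjusted p = 0.843). The α subunit Atp5f1a was at 827, 650, and 805 CPM in T_Eff and 615, 668, and 813 CPM in T_RM-like samples (-0.12 ± 0.17 SE, adjusted p = 0.797). In both genes T_Eff replicate 2 and T_RM-like replicates 1 and 2 were low and the other 3 samples high. The γ subunit Atp5f1c, the shaft inside the head, was at 228, 192, and 227 CPM in T_Eff and 244, 259, and 241 CPM in T_RM-like samples (0.20 ± 0.13 SE, adjusted p = 0.548), with all T_RM-like samples above T_Eff. The stator subunit Atp5pb had the largest fold change of the complex, at 207, 163, and 209 CPM in T_Eff and 218, 240, and 272 CPM in T_RM-like samples (0.34 ± 0.15 SE, adjusted p = 0.362). Atp5f1e, the small ε subunit, had the next highest level per length in complex V after Atp5f1b, 261 CPM per kilobase.

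The c subunit is made from 3 genes that encode the same mature protein. Atp5mc3 was 79.6% to 84.5% of their summed level per length, Atp5mc2 13% to 18.4%, and Atp5mc1 2.03% to 2.48%. Atp5mc3 was at 136, 108, and 137 CPM in T_Eff and 91.6, 103, and 142 CPM in T_RM-like samples (-0.18 ± 0.19 SE), and Atp5mc1 at 24, 19.2, and 27.3 CPM and 16.3, 17.5, and 28.1 CPM (-0.19 ± 0.23 SE). Atp5mc2 stayed between 19.5 and 22.1 CPM in all samples (0.04 ± 0.12 SE). T_RM-like replicates 1 and 2 were thus low for Atp5mc1 and Atp5mc3 but not for Atp5mc2. The deposited length of Atp5mc1, 4912 bases, is far over the 612 bases of its canonical transcript, so that its share per length is low by construction. Atp5mk, a small subunit known for holding the synthase in dimers, was at 14.2, 13, and 14.3 CPM in T_Eff and 10.8, 9.92, and 15.3 CPM in T_RM-like samples (-0.20 ± 0.19 SE, adjusted p = 0.68). Atp5if1, the inhibitor that blocks ATP hydrolysis, was at 37.1, 30.9, and 35.1 CPM and 27.2, 33.2, and 41.9 CPM, with a log2 fold change of -0.01 ± 0.17 SE.

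The T_RM-like replicates were then compared with each other. Replicate 3 lay above replicates 1 and 2 for 51 of the 89 members and below both for 14. Among protein-coding genes with as many counts, replicate 3 lay above both for 47.1% and below both for 42.2%, against 57.3% and 15.7% of members. The median size of the log2 ratio of replicate 3 to the mean of replicates 1 and 2 was 0.16 for members and 0.36 for those protein-coding genes, whereas between replicates 1 and 2 it was 0.17 for members and 0.11 for those genes. Replicates 1 and 2 lay outside the T_Eff range on the same side for 40 members, or 44.9%, and for 8 of these 40, or 20%, replicate 3 lay inside it. Both shares were lower than those of the protein-coding genes, 62% and 25.2%. For 19 of the 40 replicate 3 also lay above T_Eff and for 1 also below. For the rest it lay beyond the T_Eff range on the opposite side. Of the 6749 such protein-coding genes, replicate 3 lay inside for 1702, also above for 1461, and also below for 1281. The rest lay on the opposite side. Without replicate 3, 13 members had an adjusted p below 0.05, against 20.5% of genes tested, and 2 of them, Cox7a1 and Cox7a2l, passed the fold threshold as well, against 14%. In brackets are the log2 fold changes of that edgeR fit. The 8 that were higher were Cox7a2l (0.75), Uqcrh (0.51), Ndufa6 (0.54), Ndufa13 (0.50), Ndufaf3 (0.51), Cox4i1 (0.41), Ndufb1 (0.40), and Cox7a1 (1.04). Their adjusted p-values ran from 0.000397 to 0.0253. The 5 that were lower were Atp5mc1 (-0.49), Atp5mk (-0.42), Atp5mc3 (-0.39), Atp5f1b (-0.42), and Ndufa4 (-0.42), with adjusted p-values from 0.0344 to 0.0499. For Ndufb1, Cox7a1, Ndufa4, and, by a narrow margin, Uqcrh, replicate 3 lay on the same side of all T_Eff samples as replicates 1 and 2. For Ndufa13 and Cox4i1 it lay within the T_Eff range, and for Cox7a2l, Ndufa6, Ndufaf3, and the 4 complex V genes it lay beyond that range on the opposite side. Over the alternatives the highest adjusted p of the 13 ran from 0.314 for Cox7a1 to 0.992 for Atp5f1b.

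**Figure D5:**
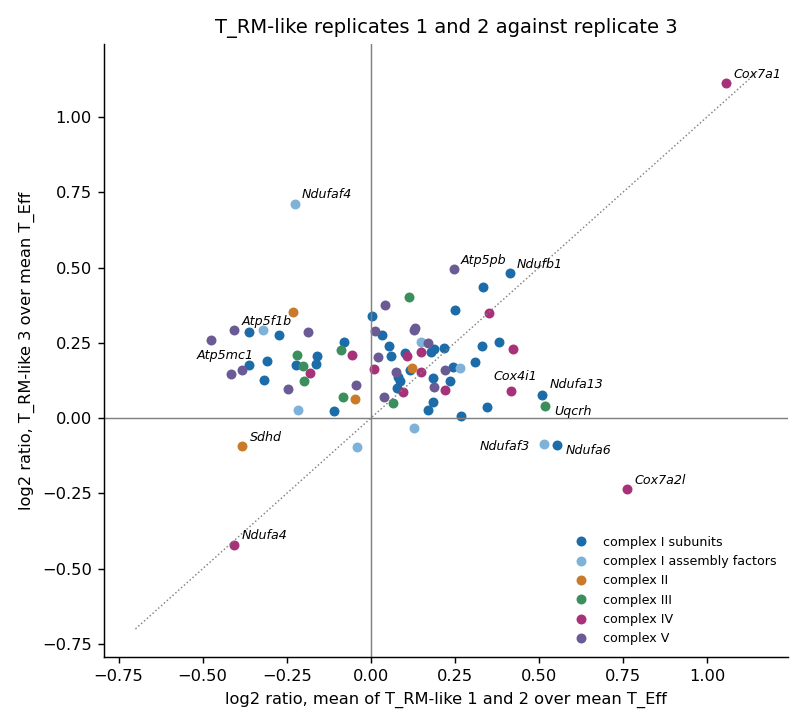
Log2 ratio to the T_Eff mean in T_RM-like replicate 3 (vertical) against the mean of T_RM-like replicates 1 and 2 (horizontal) for 89 members, coloured by complex, with equality as a dotted line. Cox7a1, Ndufb1, and Ndufa4 lie near the line, Cox7a2l, Uqcrh, Ndufa6, Ndufa13, and Ndufaf3 lie to the right near or below 0, and Atp5f1b and Atp5mc1 lie to the left above 0.

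The genes that work with the complexes were examined as lists. None of 50 tested assembly factors outside the rule was past the threshold, with a median log2 fold change of 0.00. Among them Pet100, needed to build complex IV, was at 16, 18.2, and 20.2 CPM in T_Eff and 31.2, 32.9, and 22.6 CPM in T_RM-like samples (0.68 ± 0.18 SE, adjusted p = 0.0887). None of 20 electron carriers and ubiquinone synthesis genes, 14 enzymes of the tricarboxylic acid cycle, or 15 tested regulators of mitochondrial biogenesis was past the threshold, and their medians were -0.07, -0.04, and -0.12. At an unadjusted p below 0.05 there were 3, 2, 1, and 0 genes in these 4 lists, against 14.8% of all genes tested. Coq10b, a ubiquinone-binding protein, had a log2 fold change of 0.71 ± 0.19 SE (adjusted p = 0.107) and Coq8a, a kinase-like protein of ubiquinone synthesis, of -1.13 ± 0.38 SE (adjusted p = 0.197).

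Of the regulators, Nrf1 was at 69.3, 59.7, and 62.7 CPM in T_Eff and 48.2, 50.9, and 74 CPM in T_RM-like samples, and Gabpa at 89.2, 78.5, and 93.7 CPM and 72.4, 69, and 99.3 CPM. Both were lowest in T_RM-like replicates 1 and 2 and highest in replicate 3. Esrra was at 14.2, 18, and 16.7 CPM and 20.9, 19.8, and 18.6 CPM (0.28 ± 0.14 SE, adjusted p = 0.424), and Yy1 had a log2 fold change of -0.03 ± 0.13 SE. Ppargc1a, the coactivator known from muscle and brown fat, was at 0.262 CPM or less in every sample.

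Among 78 mitochondrial ribosomal protein genes, Mrpl41 alone rose past the threshold, from 19.7, 17.6, and 18.5 CPM in T_Eff to 30, 31.7, and 30.2 CPM in T_RM-like samples (log2 fold change 0.72 ± 0.12 SE, adjusted p = 0.0153). The median of the list was -0.02. The 13 mRNAs of the mitochondrial genome, which encode the partner subunits of the members, had a median log2 fold change of 0.44 and none was past the threshold, with 6 at an unadjusted p below 0.05. Their summed level was 16776 to 17751 CPM in T_Eff and 20233, 20710, and 15755 CPM in T_RM-like replicates 1, 2, and 3. mt-Nd4, a membrane subunit of complex I, was at 132, 173, and 145 CPM in T_Eff and 385, 309, and 131 CPM in T_RM-like samples (0.87 ± 0.33 SE, adjusted p = 0.262). Without replicate 3, 6 of these 13 were past the threshold, all higher in T_RM-like samples, beside 6 of the 78 mitochondrial ribosomal genes (4 higher and 2 lower), 4 of the 50 assembly factors (1 and 3), 3 of the 20 carrier and ubiquinone genes (1 and 2), 2 of the 14 tricarboxylic acid cycle genes, both lower, and 1 of the 15 regulators, lower, against 14% of all genes in that fit. The mitochondrially encoded mRNAs were thus high in T_RM-like replicates 1 and 2, with median deviations of 0.64 and 0.59 from T_Eff, and at the T_Eff level or below it in replicate 3, at -0.15, where the nuclear members were at 0.02, 0.16, and 0.18.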

How the data were processed

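RNA was sequenced with the TruSeq Stranded Total RNA kit. The authors trimmed reads with Cutadapt 4.8, used Rsubread to map and count them against GENCODE genes of GRCm39, and deposited whole-number counts for each gene beside its length, with no scaling. Strand and multi-mapping settings are not given in the sources used here. A batch that the authors removed for plots is not named and was not modelled. Symbols came from GENCODE M39, in which 56620 of 57126 genes were found. Members, gene lists, and tests were chosen with earlier results of these data known.

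Genes counted (1 or more reads) in 3 or more samples were tested with edgeR 4.0.16 (TMM, glmQLFit, glmQLFTest) in R 4.3.3, with Benjamini-Hochberg adjustment over all of them, and the threshold was an adjusted p below 0.05 with an absolute log2 fold change above 0.58. A standard error is the size of the log2 fold change over the square root of F. DESeq2 1.42.0, limma-voom (limma 3.58.1), other scalings, other filters, a replicate block, and leaving out each sample were alternatives. CPM is counts over the TMM-effective library size. Intervals and the limit behind a count of 0 (3 counts) cover these samples only. Named genes were, per class, the 2 highest and 2 lowest fold changes and the 2 highest levels per length, plus isoform sets and, in context lists, genes past the threshold or otherwise the 2 with the smallest p, and the biogenesis regulators. Other members named with values were chosen after their values were seen. A near-identical copy is a blastn 2.17.0 match of at least 97% identity over at least 200 bases elsewhere, which 22 members had. Results of some genes are not reported here.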

Additional observations from a re-analysis of the deposited data

How the results depend on the processing

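The count of members past the threshold was 0 in the edgeR fit. It was 1, Cox7a1, with no filter on low counts, in DESeq2, and with the replicate block, and 0 under the other scalings, filters, and limma-voom. Over all genes, 1868 of 42234 were past the threshold with no filter, 1256 of 26154 in DESeq2, and 2035 of 26154 with the block. With each sample left out in turn it ran from 0 to 2, the 2 being Cox7a1 and Cox7a2l without T_RM-like replicate 3. The deviations of same-numbered samples had correlations of -0.286, 0.304, and 0.385. These 3 values differ in sign and cannot decide whether the numbers pair the samples, so the replicate block served only as an alternative. With the block and a minimum of 10 counts per sample, which was added after the data were seen, the count was 0. The median log2 fold change over members ran from 0.11 to 0.14 under the settings that kept all samples and from 0.03 to 0.20 with each sample left out, and the log2 ratio of the summed levels from 0.00 to 0.16. With no filter the median over all genes was 0.38, beside 0.12 over members. Members without a near-identical copy had a median of 0.12 over 72 tested genes, chosen after seeing the data. Over 29 of the named members, 455 of 462 comparisons with an alternative kept direction and side of the threshold. Sdha, Sdhb, Atp5if1, Ndufaf4, and other named members were not in this tally. Within the tally, leaving out T_RM-like replicate 1 turned Atp5f1b and Uqcrc1, and the cause was not tested. Over the samples left out, the log2 fold change of Atp5f1b ran from -0.42 to 0.01 and that of Uqcrc1 from -0.20 to 0.00. Over all 89 well-counted members, counted after the data were seen, at most 3 had the other sign under any setting with all samples, each within 0.01 of 0, and 7 to 15 when 1 sample was left out, among them Ndufaf4 (0.16, and -0.24 without T_RM-like replicate 3). Depth limits Cox7a1, at 16 to 58 counts per library, and more so the isoforms with fewer counts, such as Cox6b2 at 9 to 22.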
